A study of Homo sapiens with 24 samples.

Results

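The genes described here are GALNT1, STRADB, GLO1, LAMTOR3, PPP1CC, MSRA, CMTM6 and NECTIN3, 8 transcripts of DU145 cells, an established human prostate cancer cell line. They were chosen by their measured values: all were lower in cells given the control mimic NC2 than in cells given the control mimic NC1, and all differed the other way between the arrays named NC2 and NC1 pulldown. The array annotation names 13 probes for these 8 genes, of 47323 probes in all, 30113 of which carry 1 gene symbol, for 20046 genes. Of the 13 probes, 11 passed the detection filters. The other 2, GALNT1 ILMN_2082035 and LAMTOR3 ILMN_3274246, were detected on 0 of 24 arrays.

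The study looked for RNAs bound by the microRNA miR-638 and for transcripts that respond to it. In the mimic experiment, total RNA was measured after the NC1 control mimic, the NC2 control mimic or the miR-638 mimic, with 4 arrays in each of 3 groups. In the pulldown experiment, the baits were biotinylated NC1 and NC2, biotinylated miR-638 and biotinylated miR-17, and the recovered RNA was measured, with 3 arrays in each of 4 groups. All groups were DU145 cells grown in DMEM with 10% FBS, and the arrays were Illumina BeadChips, although the design text names another maker. Nothing in the labels tells if the replicates came from separate cultures, so SEs and p-values cover the spread of these samples, possibly a technical one. RNA of the pulldown cells before recovery was not analysed here, so a larger recovered amount and a larger amount in the cells cannot be told apart.

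A microRNA mimic is a short RNA duplex whose guide strand is loaded into an Argonaute protein. The loaded strand pairs with transcripts mainly through its seed, the bases near its 5′ end, and lowers many of them. A control mimic is made with a sequence meant to have no target in the cell. Such a sequence still has a seed of its own. A biotinylated microRNA is used as bait, and the transcripts held with it are recovered on streptavidin.

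The microRNA sequences are shown because the seed is the part by which a mimic or a bait pairs with a transcript. They were taken from RefSeq (GRCh38.p14, plus strand), with bases 2 to 8, the seed, in capitals. The labels name no arm of miR-17, so both are given; they lie at chr13:91350618-91350640 (5p) and chr13:91350655-91350676 (3p), and miR-638 lies at chr19:10718419-10718443.
hsa-miR-638: aGGGAUCGcgggcggguggcggccu
hsa-miR-17-5p: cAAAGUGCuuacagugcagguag
hsa-miR-17-3p: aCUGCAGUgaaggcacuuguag
The seeds of the 3 strands differ. The sequences of NC1 and NC2 are not in the sources used here, so no seed of NC2 could be set against the 8 transcripts.

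The names of the control pulldown arrays limit every direction given for that experiment. The study deposited a signal table and a table of processed values, and the 6 control pulldown columns carry exchanged names in them. Each of these columns of the value table correlated best with the intensities of the other name and the same replicate number, at r of 0.989 to 0.9945, against 0.9795 to 0.9887 with its own name. The other 18 arrays all matched by their own name. The values below follow the signal table, and "named NC1" and "named NC2" mean its names. With the names exchanged, every difference between the control pulldowns turns its sign, and the 8 transcripts would be lower with NC2 in both experiments. Which table is named correctly was not tested.

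The arrays had mean signals of 300.0 to 463 (mimic) and 428 to 629 (pulldown), and 43.6% to 47.8% of probes were detected. The epithelial markers KRT8, KRT19, EPCAM and CDH1 were detected on 12 of 12 arrays of each experiment and KRT18 on 7 and 9. The luminal prostate markers KLK3 and TMPRSS2 were detected on 0 of 12 in each. Of the blood markers, HBA1 and CD3E were detected on 0 arrays, PTPRC and HBB on 1 or 2 of 12, and CD14 on 12 of 12. Of the fibroblast markers, COL1A1 was detected on 10 mimic and 12 pulldown arrays, COL1A2 on 12 and 11, and DCN on 4 and 2. LUM and PDGFRB were detected on 0. Signals below are log2 values after normalization within an experiment, so levels are compared only within a probe and an experiment.

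GALNT1, which starts mucin-type O-glycosylation by adding GalNAc to serine and threonine, differed most. Its mimic levels (probe ILMN_1803977) were 9.35, 9.47, 9.57 and 9.32 with NC1, 6.99, 7.05, 7.15 and 7.52 with NC2, and 9.34, 9.43, 9.46 and 9.37 with miR-638. All 4 NC2 arrays lay below the other 8, and the NC1 and miR-638 arrays overlapped. In the pulldown the levels were 7.74, 7.87 and 7.71 on the arrays named NC1, 9.63, 9.83 and 9.75 on those named NC2, 9.49, 9.55 and 9.89 with miR-638, and 9.85, 9.55 and 9.57 with miR-17. Here the 3 arrays named NC1 were the low ones, and the other 3 groups overlapped. The difference of NC2 from NC1 was -2.25 (SE 0.11, 4.76-fold lower, n = 4 against 4) in the mimic, the lowest of 22469 tested probes. It was 1.96 (SE 0.12, 3.89-fold higher, n = 3 against 3) in the pulldown.

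STRADB, a pseudokinase that binds and activates the kinase LKB1 (STK11), was measured with probe ILMN_1701386. Its mimic levels were 9.58, 9.53, 9.64 and 9.77 with NC1, 7.69, 7.99, 8.02 and 8.02 with NC2, and 9.16, 9.08, 9.35 and 9.35 with miR-638. The 3 groups did not overlap, NC2 was lowest, and miR-638 lay between the controls. The difference of NC2 from NC1 was -1.70 (SE 0.10). In the pulldown the levels were 8.61, 8.86 and 8.81 on the arrays named NC1, 9.55, 9.70 and 9.58 on those named NC2, 9.10, 9.03 and 9.19 with miR-638, and 9.52, 9.38 and 9.59 with miR-17. Again the arrays named NC1 were lowest, and the miR-638 arrays lay between them and the rest. The difference between the arrays named NC2 and NC1 was 0.85 (SE 0.10).

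GLO1, glyoxalase I, detoxifies methylglyoxal made during glycolysis, and was measured with probe ILMN_1702177. Its mimic levels were 12.69, 12.66, 12.35 and 12.52 with NC1, 10.76, 10.97, 10.90 and 10.92 with NC2, and 12.59, 12.55, 12.35 and 12.45 with miR-638. NC2 stood apart from both other groups, which overlapped, and its difference from NC1 was -1.67 (SE 0.09). In the pulldown the levels were 11.90, 11.29 and 11.84 on the arrays named NC1, 12.39, 12.62 and 12.73 on those named NC2, 12.59, 12.67 and 12.72 with miR-638, and 12.98, 12.85 and 12.75 with miR-17. The arrays named NC1 were lowest, with replicate 2 the lowest of them, and the miR-17 arrays lay above all others. The difference between the arrays named NC2 and NC1 was 0.90 (SE 0.14).

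LAMTOR3, also called MP1, is a subunit of the Ragulator complex, which holds mTORC1 and MAPK signalling parts at the late endosome. Probe ILMN_1659415 read 9.90, 9.98, 9.91 and 9.86 with NC1 mimic, 8.51, 8.21, 8.71 and 8.56 with NC2, and 9.81, 9.70, 9.75 and 9.78 with miR-638. NC2 was far below both other groups, and the miR-638 arrays lay below the NC1 arrays by a small margin. In the pulldown it read 9.27, 8.89 and 9.09 on the arrays named NC1, 10.04, 10.18 and 10.22 on those named NC2, 9.87, 9.82 and 9.82 with miR-638, and 9.92, 9.73 and 9.95 with miR-17. The arrays named NC1 were lowest and those named NC2 highest, with no overlap of either with the microRNA groups. The differences of NC2 from NC1 were -1.41 (SE 0.10) in the mimic and 1.06 (SE 0.11) in the pulldown.

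The dimmer LAMTOR3 probes differed less. ILMN_3225432, which the annotation ties to a non-coding LAMTOR3 transcript, gave a difference of -0.19 (SE 0.14) in the mimic and 0.47 (SE 0.22) in the pulldown, and its control groups overlapped in both. ILMN_3301197 gave -0.74 (SE 0.19) and 0.46 (SE 0.21). It was detected on 4 of 4 NC1 mimic arrays but on 1 of 4 NC2 mimic arrays, so its mimic difference rests on signals near background.

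PPP1CC, the gamma catalytic subunit of protein phosphatase 1, was measured with probe ILMN_1701855. Its mimic levels were 13.23, 13.25, 13.03 and 13.12 with NC1, 11.77, 11.90, 11.91 and 12.11 with NC2, and 13.17, 13.26, 12.84 and 13.12 with miR-638. NC2 lay below every other array, and NC1 and miR-638 overlapped. In the pulldown the levels were 12.10, 11.87 and 12.08 on the arrays named NC1, 12.97, 13.18 and 13.14 on those named NC2, 13.02, 12.87 and 12.85 with miR-638, and 12.98, 12.99 and 13.25 with miR-17. Low levels were again those of the arrays named NC1, and the other groups overlapped. The differences of NC2 from NC1 were -1.24 (SE 0.10) and 1.08 (SE 0.10).

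MSRA, which repairs oxidized methionine in proteins, was measured with probe ILMN_2228180. Its mimic levels were 7.91, 7.94, 7.95 and 7.94 with NC1, 7.35, 7.08, 7.19 and 7.33 with NC2, and 7.99, 7.89, 8.15 and 8.10 with miR-638. NC2 was lowest, and the NC1 arrays spread least. In the pulldown the levels were 6.72, 6.72 and 6.89 on the arrays named NC1, 7.94, 7.95 and 8.07 on those named NC2, 8.25, 8.07 and 8.32 with miR-638, and 7.67, 7.79 and 7.81 with miR-17. The arrays named NC1 were lowest, and the miR-638 arrays lay above the miR-17 arrays with no overlap. The differences of NC2 from NC1 were -0.70 (SE 0.10) and 1.21 (SE 0.13).

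CMTM6, a membrane protein that keeps PD-L1 at the cell surface, was measured with probe ILMN_1696494. Its mimic levels were 9.59, 9.47, 9.75 and 9.89 with NC1, 8.64, 8.81, 9.31 and 9.39 with NC2, and 9.72, 9.67, 10.09 and 10.02 with miR-638. NC2 was lowest, its highest array lay just under the lowest NC1 array, and in every mimic group replicates 3 and 4 were above replicates 1 and 2. In the pulldown the levels were 8.79, 8.63 and 8.77 on the arrays named NC1, 10.01, 10.22 and 10.41 on those named NC2, 10.13, 10.09 and 10.14 with miR-638, and 9.97, 10.08 and 10.18 with miR-17. Only the arrays named NC1 stood apart, and the other 3 groups overlapped. The differences of NC2 from NC1 were -0.64 (SE 0.17) and 1.49 (SE 0.11).

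NECTIN3, an immunoglobulin-like adhesion protein of cell junctions, was measured with 2 detected probes. Probe ILMN_2188521 read 9.68, 10.04, 9.81 and 9.18 with NC1 mimic, 9.13, 8.47, 9.08 and 8.81 with NC2, and 9.59, 9.89, 9.64 and 9.08 with miR-638. NC2 lay below NC1 by a small margin and overlapped miR-638, through replicate 4 of that group. In the pulldown it read 8.58, 8.06 and 8.71 on the arrays named NC1, 9.37, 9.65 and 9.76 on those named NC2, 9.37, 9.42 and 9.40 with miR-638, and 9.19, 9.45 and 9.06 with miR-17. The arrays named NC1 were lowest. The differences of NC2 from NC1 were -0.81 (SE 0.21) and 1.15 (SE 0.16). The other probe, ILMN_1727633, gave -0.67 (SE 0.16) and 1.24 (SE 0.18), the same directions.

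**Figure D1:**
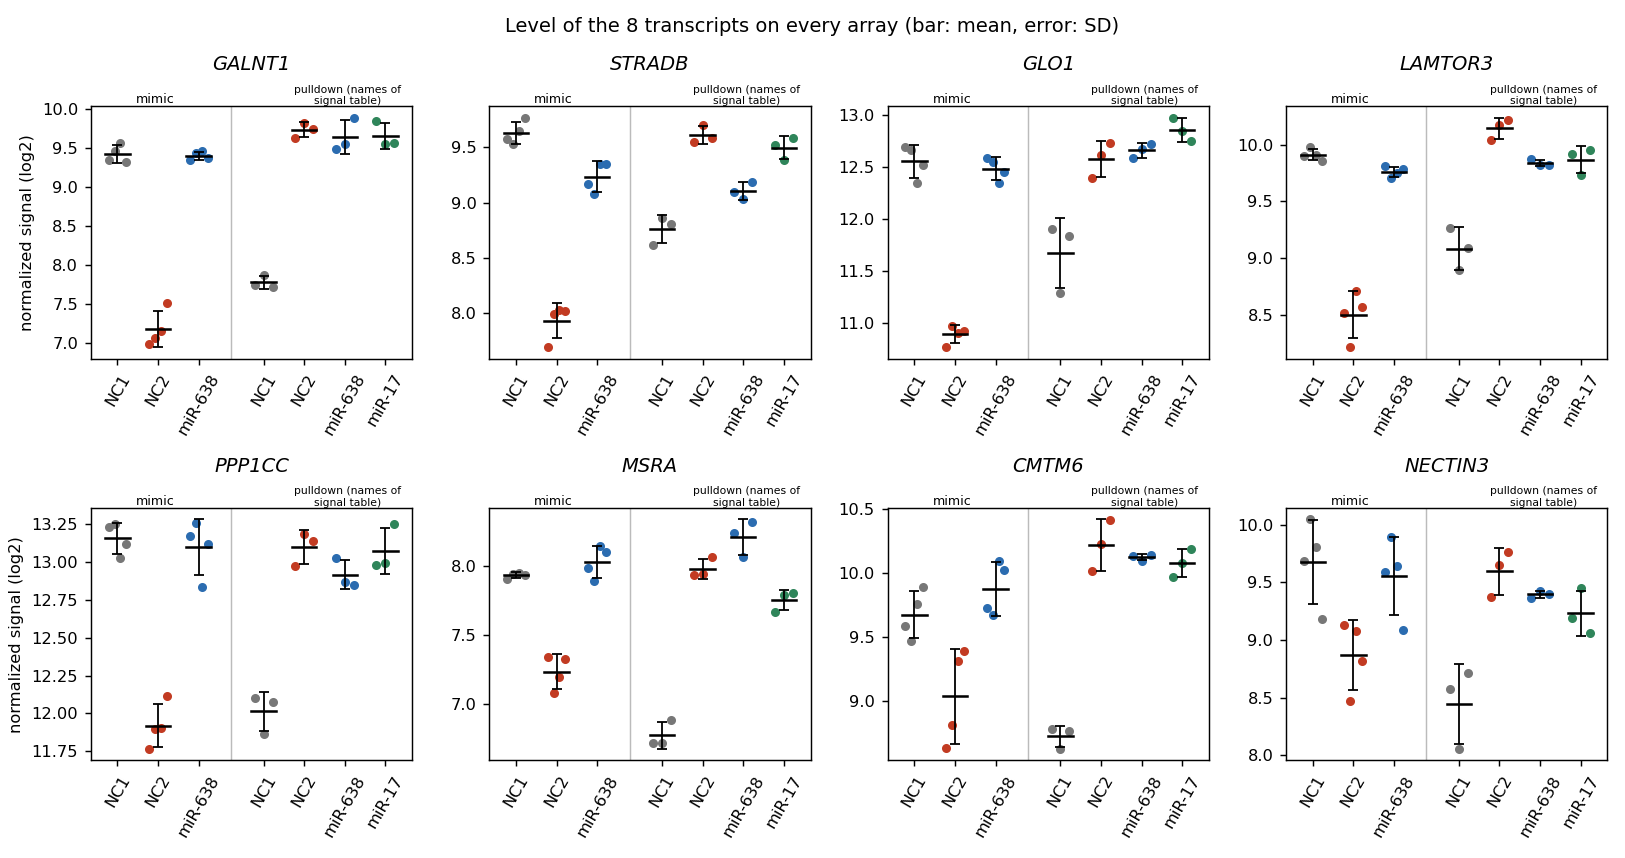
Normalized log2 signal of the 8 transcripts, 1 probe each, on every array of the 3 mimic groups (left of the line) and the 4 pulldown groups (right, control names of the signal table); points are arrays, bars are group means and error bars are SDs. The NC2 mimic arrays and the arrays named NC1 pulldown have the lowest group means, 7.18 and 7.78 for GALNT1, and the NC2 mimic arrays of NECTIN3 overlap those of miR-638.

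Set side by side, the mimic and pulldown differences did not have the same order. GALNT1 was first in both. STRADB and GLO1, at -1.70 and -1.67, ranked 4th and 5th lowest of all probes in the mimic, but were the smallest of the 8 in the pulldown, at 0.85 and 0.90. CMTM6 and MSRA were the smallest in the mimic, at -0.64 and -0.70, and ranked next to GALNT1 in the pulldown, at 1.49 and 1.21. LAMTOR3 and PPP1CC differed by similar sizes in both experiments, which were normalized separately.

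All 8 passed the Benjamini-Hochberg threshold of 0.05 in both comparisons of the controls, which is how they were chosen, so nothing is read from that count. Over all tested probes, 3.94% were called lower and 3.69% higher with NC2 mimic. Same-numbered mimic arrays had correlated residuals. With replicate number as a block the shares were 13.7% and 13.3%, and all 8 still passed. Over the pulldown probes, 2.41% were called higher and 0.91% lower on the arrays named NC2. The NC2 mimic arrays all lay below the NC1 mimic arrays for all 8 transcripts, as for 7.17% of tested probes. The arrays named NC2 all lay above those named NC1 for all 8, as for 10.6% of tested probes. Median scaling moved the mimic calls over all probes from 829 higher and 886 lower to 355 higher and 1183 lower, and left all 8 transcripts lower.

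The low group was also set against the microRNA groups, as a description, since the genes were chosen for being low on these same arrays. For 7 of the 8 transcripts every NC2 mimic array lay below the other 8 mimic arrays (3.71% of all tested probes). NECTIN3 was the exception with the probe that stands for it, while its other probe did hold the pattern. For all 8 every array named NC1 pulldown lay below the other 9 pulldown arrays, as for 2.98% of all tested probes. Nothing is read from either count.

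Replicates 1 and 2 of the mimic experiment stood apart from replicates 3 and 4, and the pairs differed in interferon-stimulated genes. Within replicates 1 and 2 the difference of NC2 from NC1 mimic was -2.39 (SE 0.11) for GALNT1, -1.72 (SE 0.11) for STRADB, -0.80 (SE 0.10) for CMTM6 and -1.07 (SE 0.15) for NECTIN3. Within replicates 3 and 4 these were -2.11 (SE 0.12), -1.69 (SE 0.10), -0.47 (SE 0.09) and -0.55 (SE 0.16). Every transcript was lower with NC2 in both pairs. The difference was nearer 0 in replicates 3 and 4 for each, but no test of that change passed (limma, adjusted p from 0.343 for PPP1CC to 0.98 for MSRA).

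The interferon-stimulated genes also differed between the controls. Of 19 tested, 18 were called higher and 0 lower on the arrays named NC2 pulldown, with a median difference of 1.04. In the mimic their median difference was 1.03, and all 19 were above 0, with 0 called without a block and 16 called higher and 0 lower with replicate number as a block. Relative to the mean of its experiment, the median interferon gene was at 1.94 to 2.14 on NC2 mimic replicates 3 and 4 and at 0.30 to 0.37 on NC1 mimic replicates 3 and 4. With miR-638 mimic it was at 1.17 to 1.18 on replicates 3 and 4. On replicates 1 and 2 it was at -1.26 to -1.25 with NC2, -1.41 to -1.38 with NC1 and -0.95 to -0.73 with miR-638. On the pulldown arrays it was at 0.94 to 1.08 where named NC2 and at -0.11 to 0.03 where named NC1. It was lower still with miR-638 (-0.80 to -0.63) and miR-17 (-0.39 to -0.22), whereas the 8 transcripts were lowest on the arrays named NC1. The part of the interferon genes in the differences of the 8 transcripts was not tested, in either experiment.

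With the miR-638 mimic the 8 transcripts stayed near the NC1 mimic. These values share the NC1 arrays with the comparison that chose the genes and are given as a description. The differences from NC1 mimic ran from -0.40 (SE 0.10) for STRADB to 0.20 (SE 0.17) for CMTM6, with a median of -0.06. The 95% intervals of GALNT1 (-0.27 to 0.22), GLO1 (-0.26 to 0.12), PPP1CC (-0.27 to 0.15) and MSRA (-0.11 to 0.31) held 0 and that of STRADB (-0.62 to -0.17) did not. Against the NC2 mimic the same arrays were higher by 0.68 (NECTIN3) to 2.22 (GALNT1). A comparison of miR-638 with the mean of both control mimics therefore carries part of the difference between the controls for these genes.

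The microRNA pulldowns were set against each control. Against the arrays named NC1, the miR-638 pulldown differed by 0.35 (STRADB) to 1.87 (GALNT1), and the miR-17 pulldown by 0.74 (STRADB) to 1.88 (GALNT1). Against the arrays named NC2, the differences ran from -0.51 (STRADB) to 0.23 (MSRA) for miR-638 and from -0.36 (NECTIN3) to 0.28 (GLO1) for miR-17. The medians of the 8 were 0.97 and 1.02 against the arrays named NC1, and -0.14 and -0.13 against those named NC2. For GALNT1 the 95% interval against the arrays named NC2 was -0.36 to 0.18 with miR-638 and -0.35 to 0.19 with miR-17. Intervals below 0 were those of STRADB with miR-638 (-0.73 to -0.29), LAMTOR3 with both (-0.54 to -0.08 and -0.51 to -0.05) and NECTIN3 with miR-17 (-0.71 to -0.02). The rest held 0. The second NECTIN3 probe, ILMN_1727633, was lower with miR-638 (-0.65, interval -1.03 to -0.27) and with miR-17 (-0.42, interval -0.80 to -0.04). All these differences share control arrays with the choice of the genes, so no p-value is given.

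**Figure D2:**
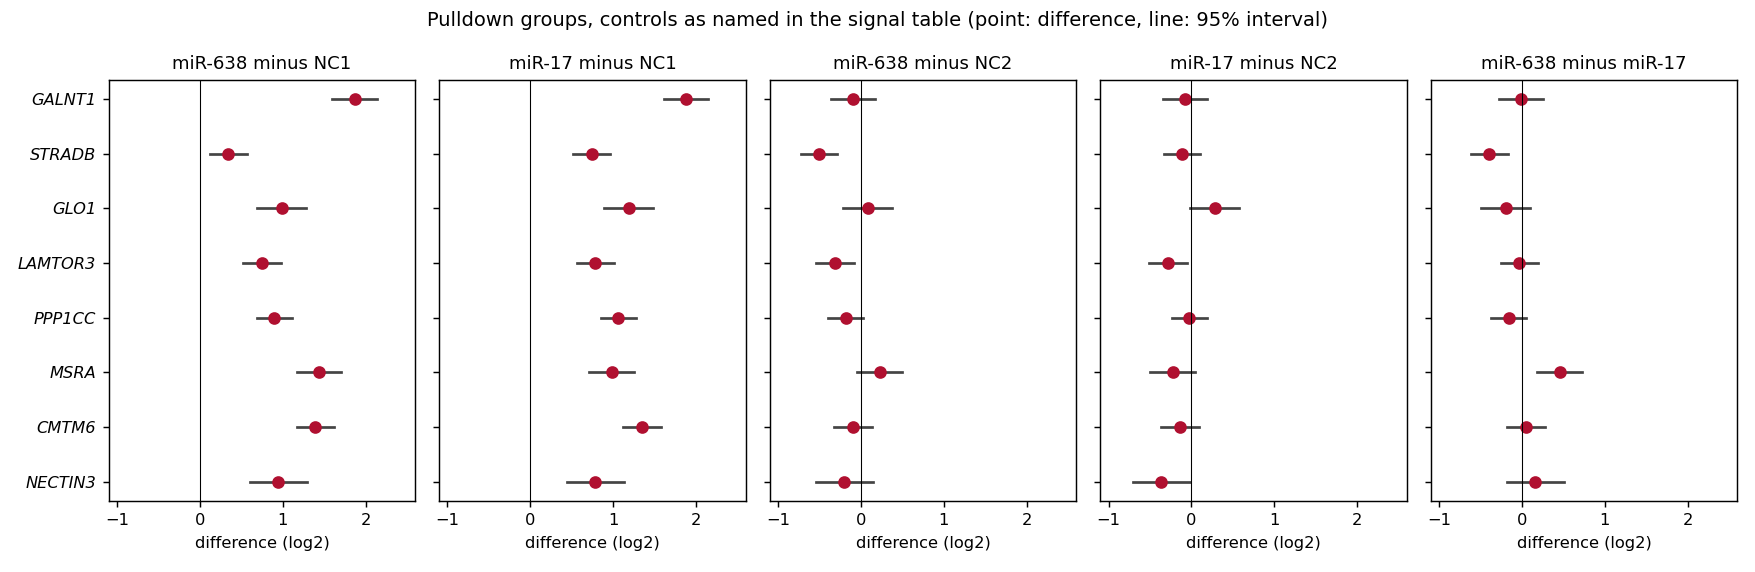
Difference in log2 signal of the 8 transcripts between pulldown groups, with controls named as in the signal table (point, difference; line, 95% interval; 3 arrays per group). Against the arrays named NC1 both microRNA pulldowns lie above 0 for each transcript. Against the arrays named NC2 the differences run from -0.51 to 0.28. Most of these intervals hold 0, but some lie below it, such as STRADB with miR-638 (-0.73 to -0.29).

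Against the mean of both controls, the comparison that does not depend on the control names, 5 of the 8 were called higher with miR-638 (4.97% of all tested probes) and 6 with miR-17 (6.6%). Both share the same controls, whose mean holds the low arrays named NC1, so the counts are a description. GALNT1 was 0.89 (SE 0.11) above that mean with miR-638 and 0.90 (SE 0.11) with miR-17. MSRA was 0.83 (SE 0.11) and 0.38 (SE 0.11) above it, and STRADB -0.08 (SE 0.09) and 0.31 (SE 0.09) from it. With the authors' processed values, 1 of the 5 calls with miR-638 (MSRA) and 0 of the 6 with miR-17 remained.

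The difference between the miR-638 and miR-17 pulldowns uses no control array and was tested. Its SE, however, rests on a spread shared by all 12 pulldown arrays, including the control arrays that chose the genes. Genes chosen for passing in that fit can have a small spread, so these p-values are not independent of the choice. Of the 8, MSRA was higher with miR-638 (difference 0.46, 95% interval 0.19 to 0.73, limma adjusted p = 0.046, no overlap of 3 against 3 arrays). STRADB was lower with miR-638 (-0.39, interval -0.61 to -0.17, adjusted p = 0.0346, again with no overlap). Over all tested probes 2.6% were called higher and 3.79% lower, and 1 of the 8 was called each way. The other 6 did not pass: their intervals ran from -0.28 to 0.26 for GALNT1, -0.50 to 0.10 for GLO1, -0.26 to 0.20 for LAMTOR3, -0.37 to 0.05 for PPP1CC, -0.18 to 0.27 for CMTM6 and -0.18 to 0.51 for NECTIN3. Leaving out any 1 of the 6 microRNA arrays ended both calls, with adjusted p of 0.0516 to 0.149 for STRADB and 0.0639 to 0.175 for MSRA. Both were also lost with median scaling (0.178 and 0.343) and without a detection filter (0.0701 and 0.0909). The sizes under these settings stayed at -0.48 to -0.35 for STRADB and 0.40 to 0.53 for MSRA. The MSRA call was also lost without replicate 1 (0.059) or 3 (0.0518) of the arrays named NC1, or replicate 3 of those named NC2 (0.0536). With the authors' processed values the MSRA difference was 1.25 (adjusted p = 0.0401) and the STRADB difference -0.87 (0.26).

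The opposite directions were not limited to the 8 genes. Among the other probes tested in both experiments, 867 were called lower with NC2 mimic. Of these, 159 (18.3%) were called higher and 5 lower on the arrays named NC2 pulldown. With replicate number as a block in both fits, 3033 probes were called lower with NC2 mimic, of which 223 (7.35%) were called higher and 5 lower in the pulldown. Seen from the pulldown, 159 of the 551 probes called higher (28.9%) were lower with NC2 mimic. Among the 19635 probes not called in the mimic, 371 (1.89%) were higher and 163 (0.83%) lower.

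The share grew with the size of the mimic difference. Of 79 probes lower with NC2 mimic by 1 or more on the log2 scale, 40 (50.6%) were called higher on the arrays named NC2 pulldown and 0 lower, with a median difference of 0.46. Of 451 probes lower by 0.5 to 1, 86 (19.1%) were higher and 0 lower. Of 337 probes lower by under 0.5, 33 (9.79%) were higher and 5 (1.48%) lower. On the other side, 10 (17.9%) of the 56 probes higher with NC2 mimic by 1 or more were called lower and 0 higher. Of 410 probes higher by 0.5 to 1, 27 (6.59%) were lower and 14 (3.41%) higher. Of 351 probes higher by under 0.5, 7 were lower and 7 higher. Over these 817 probes 44 (5.39%) were called lower and 21 (2.57%) higher.

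Across all 21330 probes tested in both experiments the differences correlated at r of -0.198, and at -0.549 across the 1694 called in the mimic. These are descriptions across probes, which are not independent, and with the pulldown names exchanged the signs turn. The count of 159 fell to 103 without replicate 1 of the arrays named NC1 and to 97 without replicate 3 of those named NC2. With the authors' processed values it was 0, but very few probes were called between the control pulldowns there, so that count says little about directions.

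**Figure D3:**
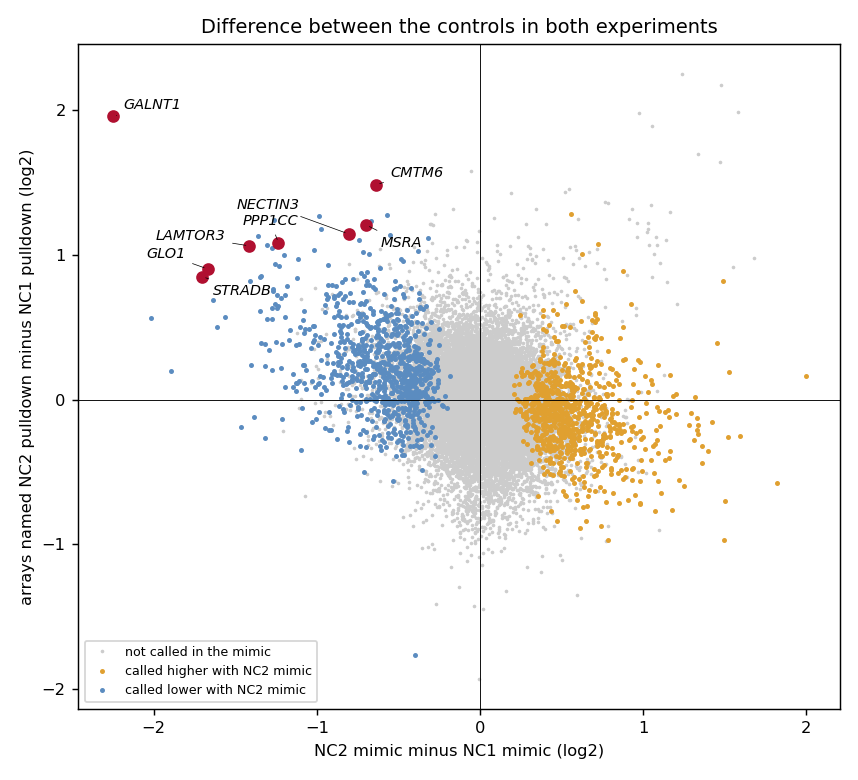
Each point is a probe tested in both experiments, with its log2 difference of NC2 from NC1 mimic (horizontal axis) and of the arrays named NC2 from NC1 pulldown (vertical axis); blue and orange mark probes called lower and higher with NC2 mimic, and red the 8 transcripts. The red points lie at the upper left, GALNT1 farthest out at -2.25 and 1.96.

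**Figure D4:**
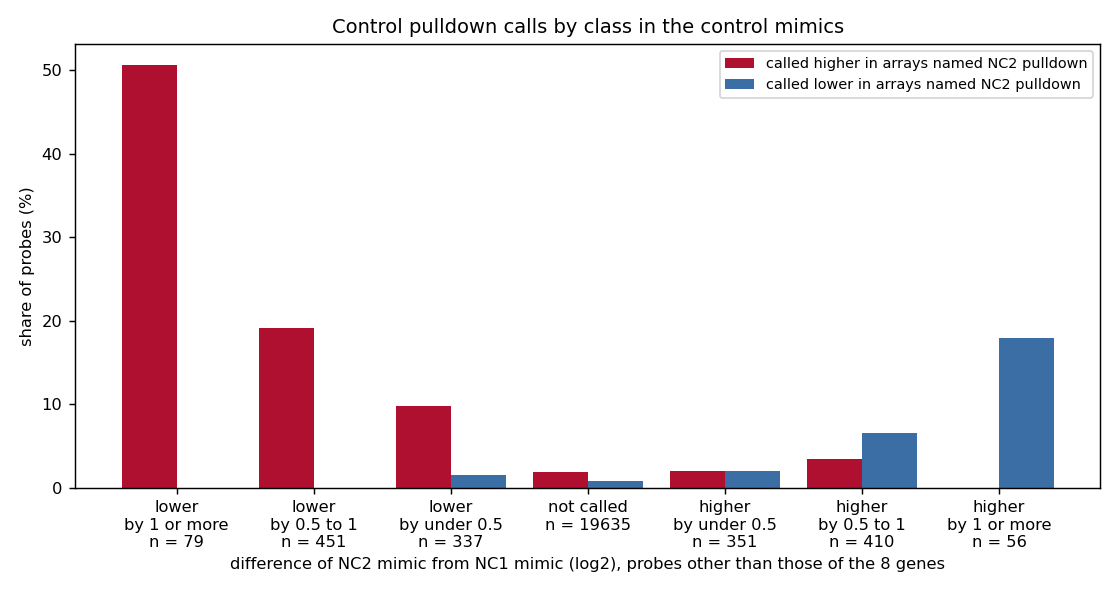
Share of probes (%) called higher (red) or lower (blue) on the arrays named NC2 pulldown, for probes other than those of the 8 genes, grouped by their difference between the control mimics. The share called higher goes from 50.6% of the probes lower by 1 or more to 1.89% of those not called.

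Over the 24 arrays, each centred on its experiment, the 8 transcripts followed one another with r from 0.821 (NECTIN3) to 0.983 (GALNT1) between a transcript and the mean of the other 7. Those most like their mean among 16362 probes were ATXN10 (r 0.963), RDH14 (0.958), LRIG1 (0.956), LSM3 (0.951) and PABPC1 (0.949). ATXN10 differed by -1.26 in the mimic and 1.24 in the pulldown, and PABPC1, a poly(A)-binding protein, by -0.70 and 0.88. These arrays share the normalization and the contrast of the controls, so the values describe likeness only. The 8 were chosen for their differences on these same control arrays, which by itself favours a high r among them.

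The families and complexes of the 8 proteins were compared in the same way. Of 89 tested relatives, 2 were called lower and 4 higher with NC2 mimic, and 1 higher and 2 lower on the arrays named NC2 pulldown. With replicate number as a block the mimic counts were 14 lower and 12 higher, shares close to the 13.7% and 13.3% of all tested probes, and the pulldown counts were the same. Their median differences were -0.05 and -0.01, against 0.00 for all probes in both.

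GALNT2, another initiating GalNAc transferase, differed by -0.09 (SE 0.10) in the mimic and 0.03 (SE 0.14) in the pulldown. In the mimic 0 of 12 relatives of GALNT1 were called without a block. With replicate number as a block GALNT11, GALNT12 and C1GALT1 were called higher, and GALNT14, GALNT18 and C1GALT1C1 lower. STRADA, the other LKB1-binding pseudokinase, differed by 0.13 (SE 0.08) and -0.22 (SE 0.10). The SIK1 kinase, an LKB1 substrate, was lower on the arrays named NC2 pulldown (-0.45, SE 0.10, limma adjusted p = 0.0244). In the mimic STK11 (-0.44), NUAK1 (-0.20) and NUAK2 (-0.46) were called lower, like STRADB, and PRKAG1 (0.33) higher, only with the replicate block. HAGH, the glyoxalase that follows GLO1, differed by -0.01 (SE 0.11) and -0.09 (SE 0.12).

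Among the Ragulator genes LAMTOR5 was higher with NC2 mimic (0.29, SE 0.07, limma adjusted p = 0.0276), opposite to LAMTOR3. LAMTOR4 was lower on the arrays named NC2 pulldown (-0.51, SE 0.11, adjusted p = 0.0208), again opposite to LAMTOR3. In the mimic LAMTOR4 differed by 0.54 (SE 0.16), which did not pass without a block (adjusted p = 0.0634) and did with it (0.000157). Also called only with the block were SLC38A9 (-0.39) and FNIP1 (-0.27), lower like LAMTOR3, and RRAGB (0.37), higher. The PP1 catalytic subunits PPP1CA and PPP1CB differed by -0.13 (SE 0.08) and 0.78 (SE 0.22) in the mimic. PPP1CB did not pass without a block (adjusted p = 0.0533) and was higher with it (1.15e-08), opposite to PPP1CC. The PP1 regulators PPP1R3D and PPP1R15A were higher with NC2 mimic, by 0.70 and 0.38. Only with the block, PPP1R3C (-0.22) was called lower there, like PPP1CC, and PPP1R7 (0.27) higher. MSRB1, MSRB2 and MSRB3, which repair the other form of oxidized methionine, differed by -0.10 to -0.03 in the mimic, and the thioredoxin reductase TXNRD1 was higher by 0.34 (adjusted p = 0.047).

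The largest decreases among the relatives with NC2 mimic were in the families of CMTM6 and NECTIN3. CMTM4, which also protects PD-L1, was lower with NC2 mimic (-1.08, SE 0.15, adjusted p = 0.00069) and higher on the arrays named NC2 pulldown (0.46, SE 0.08, adjusted p = 0.00586). Without a block CMTM4 was the 1 relative called in both comparisons. With replicate number as a block LAMTOR4 was called in both, higher in the mimic and lower on the arrays named NC2 pulldown. CADM1, a nectin-like adhesion protein, was lower with NC2 mimic (-1.32, SE 0.15, adjusted p = 0.000183) and did not pass in the pulldown (0.24, SE 0.12, adjusted p = 0.335). NECTIN2 differed by -0.23 (SE 0.13) in the mimic and 0.13 (SE 0.12) in the pulldown. CMTM3 (-0.28), CMTM7 (-0.34) and PVR (-0.21) were called lower with NC2 mimic only with the block.

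**Figure D5:**
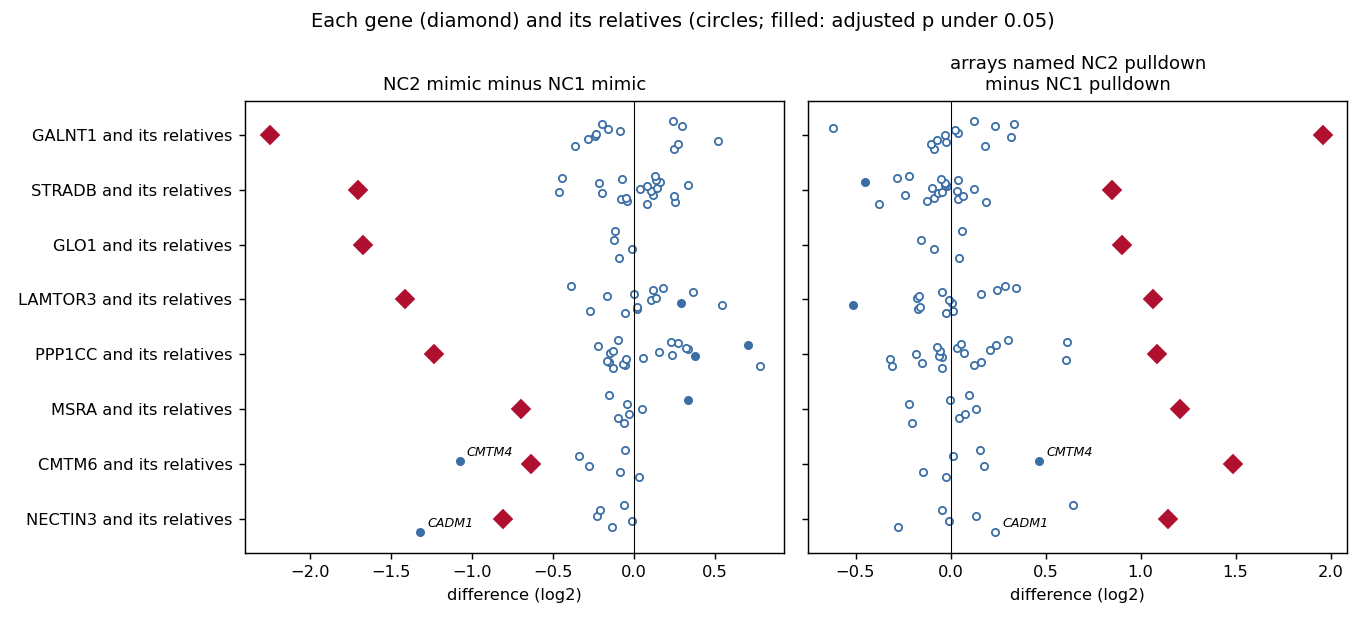
Log2 difference of NC2 from NC1 mimic (left) and of the arrays named NC2 from NC1 pulldown (right) for each of the 8 genes (red diamond) and its tested relatives (blue circles, filled where the adjusted p was under 0.05). Filled without a replicate block; in the mimic 4 relatives were called higher, PPP1R3D by most (0.70), and 2 lower, CMTM4 (-1.08) and CADM1 (-1.32).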

How the data were processed

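The authors' deposited signal table gives each probe an intensity (linear, before any normalization) and, per the file headers, the detection p-value that belongs to it. The deposited value table holds log2 values floored at 4, by a method not given in the sources used here; it served as an alternative. The neqc function of limma 3.58.1 (R 4.3.3, offset 16) corrected the background and quantile normalized the 12 arrays of an experiment together. Tests covered the 22469 probes detected (p below 0.05) on 4 or more mimic arrays and the 23742 detected on 3 or more pulldown arrays. Group means of all groups of an experiment were fitted with limma, moderated with a trend. Tests were two-sided at a Benjamini-Hochberg adjusted p under 0.05 over all tested probes. The fit was tested on simulated data with independent noise on each array, so that test does not cover the correlated residuals of the mimic arrays. The number of arrays limits the precision. Each gene is represented by its probe of highest mean level.

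The 8 genes and the lists of relatives, markers and interferon genes were chosen with earlier results of these data known. Relatives were named where called in a comparison or as the closest paralog or partner, some after their values were seen; the 5 genes most like the 8 were named by Pearson's r. Replicate numbers paired the mimic arrays (residual correlation of same-numbered arrays 0.605 to 0.704, 12 pairs) and the control pulldown arrays (0.127 to 0.587, 3 pairs), but not the miR-638 and miR-17 pulldown arrays (-0.057 to 0.029, 3 pairs). Alternatives were other normalizations and filters, the value table, array weights, fewer groups, 1 probe per gene, a replicate block, each pair of mimic replicates and leaving out each array. Exchanged control names, the value table under the signal table's names and a replicate block within the control pulldowns were added after seeing the data. Figures used matplotlib 3.10.9 (Python 3.11.15).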

Additional observations from a re-analysis of the deposited data

Results flagged for a closer look

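In 33 groups of 4 arrays, 2 had 1 array apart from the rest by Dixon's criterion, about as many as 1 in 20 by chance. These were STRADB on NC2 mimic replicate 1, at 7.69, and the dim LAMTOR3 probe ILMN_3301197 on miR-638 mimic replicate 2, at 5.63.

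For 10 probes all NC2 arrays lay on one side of the NC1 arrays in the mimic and on the other side in the pulldown, by the signal table's names. The difference of NC2 from NC1 in the pulldown less that in the mimic was 4.21 for GALNT1, 2.55 for STRADB, 2.57 for GLO1, 2.48 and 1.20 for LAMTOR3, 2.32 for PPP1CC, 1.91 for MSRA, 2.12 for CMTM6, and 1.95 and 1.91 for NECTIN3. The gap was not tested, since the genes were chosen for it and the experiments were normalized separately.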

How the results depend on the processing

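Under 24 alternatives the mimic difference of NC2 from NC1 was below 0 in all 260 values of the tested probes, and under 23 alternatives that kept the signal table's names the pulldown difference was above 0 in all 250. With the control pulldown names exchanged the pulldown differences were -1.96 (GALNT1), -0.85 (STRADB), -0.90 (GLO1), -1.06, -0.47 and -0.46 (LAMTOR3), -1.08 (PPP1CC), -1.21 (MSRA), -1.49 (CMTM6), -1.15 and -1.24 (NECTIN3). In the authors' values under their own names they were -1.60, -0.79, -1.11, -0.99, -0.43, -0.31, -0.76, -1.52, -1.82, -1.26 and -1.25 in the same order, and MSRA in the miR-17 pulldown turned to -0.092 (adjusted p = 0.932). The 1715 probes called between the control mimics became 1075 without a detection filter, 6074 with replicate number as a block (which holds all 1715), 4843 in replicates 1 and 2, 2837 in replicates 3 and 4, and 1006 to 1583 leaving out 1 array. The 787 called between the control pulldowns became 239 with median scaling (199 higher and 40 lower, against 571 and 216), 6 with the authors' values under either naming, 136 with only those groups, 390 to 1084 leaving out 1 array, 675 with the replicate block over all groups and 955 with it in the control groups alone (529 higher and 426 lower), where all 8 genes were called. For miR-638 against miR-17, 1518 became 759 with median scaling (231 higher, 528 lower, against 617 and 901), 187 with the authors' values, 3690 with only those groups, 3340 with array weights and 824 to 2169 leaving out 1 array. For miR-638 against both controls, 1912 became 1063 with median scaling (768 higher, 295 lower, against 1179 and 733), 136, 1057, 3242 and 746 to 2301. For miR-17 against both controls, 2690 became 1731 with median scaling (1206 higher, 525 lower, against 1566 and 1124), 285 with the authors' values, 4038 with array weights and 1319 to 3140. The 159 probes lower with NC2 mimic and higher in the pulldown became 59 with median scaling, 104 without a filter, 0 with the authors' values under either naming, 5 with exchanged names, 30 with only those groups, 255 in mimic replicates 1 and 2, and 97 to 159 leaving out 1 array. The cause of these changes was not tested. With the replicate block the miR-638 against miR-17 calls of STRADB and MSRA were lost (adjusted p = 0.0534 and 0.0619), and the numbers do not pair those arrays.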
